A study of Caenorhabditis elegans with 2 samples.

Results

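The histone genes of Caenorhabditis elegans were taken as every protein-coding gene of Ensembl release 115 on assembly WBcel235 (ce11) whose symbol is his- followed by a number, which gave 72 of 19973 protein-coding genes. The data are chromatin immunoprecipitation and sequencing (ChIP-seq) region lists for MDL-1 from whole L2 larvae of mixed sex, with 2 biological replicates of 1 group and no other condition. The strain, OP355, has the genotype unc-119(tm4063) III; wgIs355, in which wgIs355 is a transgene that targets mdl-1. The antibody, strain and experiment labels name MDL-1, but 1 further label on both samples names KLU-1 as the protein carrying the C-terminal GFP-FLAG tag, so which protein was tagged is not settled by the labels. The promoter driving the transgene is not given, and whole animals were used, so a region cannot be placed in a tissue. The lists analysed were the 1076 optimal peaks kept by the authors' threshold on the irreproducible discovery rate (IDR), which compares region ranks between replicates, the 30000 regions of the pooled replicates and the 30000 regions of each replicate alone. Each region has a signal in the authors' own units, whose scale is not stated, and ranks below are by that signal within a list. Sequencing depth is unknown, since read counts were not analysed here.

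Core histones H2A, H2B, H3 and H4 form the octamer around which nuclear DNA is wrapped, and linker histone H1 binds the DNA where it enters and leaves that particle. In C. elegans most core histone genes lie in clusters, as divergent H2A-H2B and H3-H4 pairs that share 1 short intergenic promoter, and their transcription accompanies DNA replication. Replacement histones such as H3.3 are made outside S phase as well, and their genes lie outside these clusters. MDL-1 is a bHLH-Zip protein of the Mad type that pairs with a Max-like partner on the E-box CACGTG. Mad proteins in mammals are known as antagonists of Myc in growth and cell division.

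RefSeq products divided the 72 genes into 17 for H2A, 16 for H2B, 15 for H3, 16 for H4, 5 for H3.3, 1 for linker H1 (his-24) and 2 for short proteins with a histone domain (his-39 and his-73). Divergent pairs took in 62 of the genes, in 31 pairs whose starts lay 228 to 369 bp apart with a median of 259 bp. Of these pairs, 16 were H2A-H2B, 14 were H3-H4 and 1 joined H2A to H4. A clustered gene was one in a run of at least 3 histone genes with starts at most 10 kb apart, which gave 61 clustered genes in 11 runs. The others were 5 single or paired genes (his-38, his-40, his-67, his-68 and his-73), the 5 H3.3 genes (his-69, his-70, his-71, his-72 and his-74) and his-24. Of the H3.3 genes, his-69 and his-70 are neighbours within 1.76 kb. The promoter window of a gene was the stretch reaching 1000 bp before and 200 bp past each of its annotated starts, and a gene counted when a summit, the highest point of a region, lay in that stretch. Because of the pairs, the 72 genes had only 37 separate windows after overlaps were merged.

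The sequences around 6 of the pooled summits carry the findings described below. Each is 101 bases centred on the summit, 5′ to 3′ on the stated strand of WBcel235. The first set holds the summits at his-37 (chrV:9546974-9547074, plus strand), his-24 (chrX:14490003-14490103, plus strand) and his-3 (chrV:16040606-16040706, plus strand). Capitals mark a word of 14 letters that all 3 share, read on one strand or the other.
his-37: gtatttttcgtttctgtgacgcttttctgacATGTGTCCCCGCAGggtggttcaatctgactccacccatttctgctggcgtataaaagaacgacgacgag
his-24: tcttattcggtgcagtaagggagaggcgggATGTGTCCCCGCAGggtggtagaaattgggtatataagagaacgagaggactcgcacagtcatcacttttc
his-3: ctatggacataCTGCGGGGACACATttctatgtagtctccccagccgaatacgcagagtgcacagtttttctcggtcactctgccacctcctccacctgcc
The second set shows the H3.3 summit at his-72 (chrIII:12369155-12369255, minus strand), where capitals mark CACGTG, and the summits between his-35 and his-41 (chrV:9545362-9545462, plus strand) and upstream of his-42 (chrII:13829447-13829547, minus strand), which hold neither word and have no capitals.
his-72: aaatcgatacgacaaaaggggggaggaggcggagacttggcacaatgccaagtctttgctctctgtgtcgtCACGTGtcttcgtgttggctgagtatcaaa
his-35 and his-41: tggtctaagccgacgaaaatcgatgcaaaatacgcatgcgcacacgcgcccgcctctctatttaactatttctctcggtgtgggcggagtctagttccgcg
his-42: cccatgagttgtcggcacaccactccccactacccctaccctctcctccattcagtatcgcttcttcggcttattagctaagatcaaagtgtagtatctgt

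Optimal summits lay in the windows of 7 of the 72 histone genes, against 3.07% of all protein-coding genes tested in the same way. The 7 genes were his-35, his-37, his-41, his-42, his-67, his-68 and his-72, and they shared 5 distinct peaks. By type they encode H2A (2 genes), H2B (1), H3 (1), H4 (2) and H3.3 (1). Among clustered genes 4 of 61 were counted, or 6.56% with an exact 95% binomial interval of 1.82 to 15.9%. Among single and paired genes 2 of 5 were counted (40%, 5.27 to 85.3%), both from the same peak. Among H3.3 genes 1 of 5 was counted (20%, 0.505 to 71.6%), and the linker gene his-24 had no optimal peak. The intervals cover counting error only and treat paired genes as independent, which they are not. They overlap widely between clustered, single or paired, and H3.3 genes, but such overlap is no test of a difference. No test between these classes was run, and no difference between them was shown at these numbers.

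The strongest histone region lay at his-37, an H4 gene, at chrV:9546968-9547090. It ranked 79 in the pooled list with a signal of 191. Its signal was 96.3 in replicate 1, where it ranked 102, and 97.2 in replicate 2, where it ranked 67. The replicates were thus almost equal here, with a ratio of 0.990. Over 1070 optimal peaks the median ratio of replicate 1 to replicate 2 was 1.11, with quartiles of 0.844 and 1.43. The ratio at his-37 lay between these quartiles and does not set it apart. The region was 123 bp wide, and the summit lay 81 bp upstream of the start, in the 263 bp gap between C50F4.6 and his-37. No CACGTG lay within 50 bp of it, although a variant E-box, CACATG, lay 17.5 bp away and overlapped the shared word. Its signal was above the median of 72.1 over the 539 optimal peaks with a summit in a promoter window, and the other 4 histone peaks were below that median.

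The same run of 3 genes on chromosome V held a second optimal peak, at chrV:9545242-9545581 between his-35 (H2A) and his-41 (H2B). Its summit lay 124 bp upstream of each of the 2 starts, at the middle of their divergent promoter. It ranked 740 with a pooled signal of 59.9, and had signals of 34.7 in replicate 1 and 23.9 in replicate 2, a ratio of 1.45. The replicate summits did not fall on the same base, since the summit of replicate 1 lay 81 bp upstream of his-41 and that of replicate 2 lay 19 bp downstream of it. The window of C50F4.6, which RefSeq annotates as a cold-shock protein, also held this summit, 680 bp upstream of its start. A weaker pooled region, rank 16937 with a signal of 16.3, lay 2 bp past the start of C50F4.6 and 806 bp upstream of his-35.

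**Figure D1:**
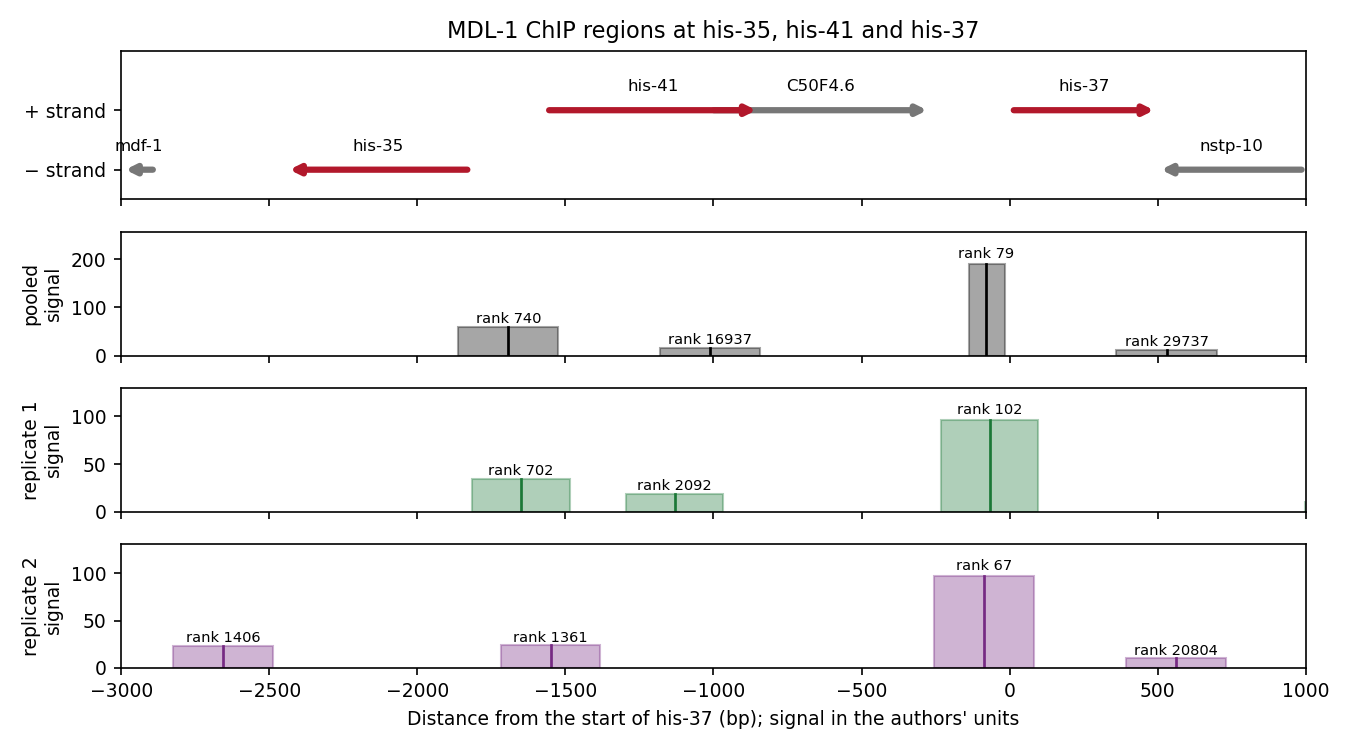
Regions around his-35, his-41 and his-37, plotted by distance from the start of his-37 in bp, with genes on top (arrows point in the direction of transcription) and bars below for the regions of the pooled list, replicate 1 and replicate 2, each at the height of its signal in the authors' units and with a line at its summit. The region at his-37 is the highest in all 3 lists, at 191 in the pooled list, 96.3 in replicate 1 and 97.2 in replicate 2.

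The H3.3 gene his-72 is one of the broadly expressed H3.3 genes, and it was the only member of its class with an optimal peak. That peak, at chrIII:12369035-12369374, ranked 761 with a signal of 59.0, and its signal was 25.2 in replicate 1 and 31.9 in replicate 2. The summit lay 155 bp upstream of the more distal of 2 annotated starts and 1041 bp upstream of the other. It was the only histone peak of the 5 with CACGTG within 50 bp of its summit, where 109 of the 539 optimal promoter peaks (20.2%) had one. The centre of the E-box lay 23.5 bp from the summit. A second pooled region, rank 3210 with a signal of 28.6, lay 642 bp upstream of his-72 and 764 bp upstream of rpt-6, which encodes a subunit of the proteasome's regulatory particle. The other H3.3 genes had no pooled region in their windows. Among them his-71, the other gene of this kind, had 1 region in replicate 2 alone, with a signal of 13.96, rank 8316 and a summit 334 bp upstream, while his-69, his-70 and his-74 had no region in any list.

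The paired genes his-67 (H4) and his-68 (H2A) shared the peak of rank 776, on chromosome I. Its pooled signal was 58.4, with 30.5 in replicate 1 and 24.7 in replicate 2, a ratio of 1.23. The summit lay 226 bp upstream of his-67 and 143 bp upstream of his-68, and also 813 bp upstream of alg-5, an Argonaute gene. The other paired genes, his-38 (H4) and his-40 (H3), and the single gene his-73 had no region in any list.

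The fifth peak was counted for his-42, an H3 gene at the edge of a cluster of 13 genes, but lay far from it. It spanned chrII:13829327-13829666, ranked 893 with a signal of 54.1, and its summit lay 800 bp upstream of his-42. That summit was 6 bp from the small nuclear RNA gene F08G2.10 (13829305 to 13829491, minus strand) and 5 bp from the noncoding RNA gene F08G2.15, which overlaps it on the other strand. It was also the least even of the 5 peaks between replicates, with 36.8 in replicate 1 and 16.3 in replicate 2, a ratio of 2.25, and a rank of 640 in replicate 1 against 4861 in replicate 2. Only 33.3% of the 36-base words in the printed sequence of 101 bases occur once in the genome. Over the whole optimal list 11 summits lay at most 200 bp from a small nuclear RNA gene. Leaving these peaks out left 6 histone genes and 4 peaks, against 3.03% of all genes.

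Of the histone regions on either side of the IDR threshold, which fell after rank 1076 and a signal of 48.3, the nearest were that of his-42 inside it, at rank 893, and that of the linker gene his-24 well outside it, at rank 1782. At his-24 the pooled signal was 36.4, with 23.6 in replicate 1 and 13.5 in replicate 2, a ratio of 1.75, and the summit lay 41 bp upstream of the start. The divergent pair his-3 (H2A) and his-4 (H2B) had a pooled region of rank 5641 with a signal of 23.9, whose summit lay 152 bp upstream of his-3 and 141 bp upstream of his-4. Here replicate 2 was the higher, with 14.8 against 9.09 in replicate 1. Noncoding RNA genes also lay within 200 bp, M163.19 at the region of his-24 and T10C6.19 at that of his-3 and his-4. Both regions are weak, and the second lies within the long tail of a list that the authors describe as holding peaks and background.

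**Figure D2:**
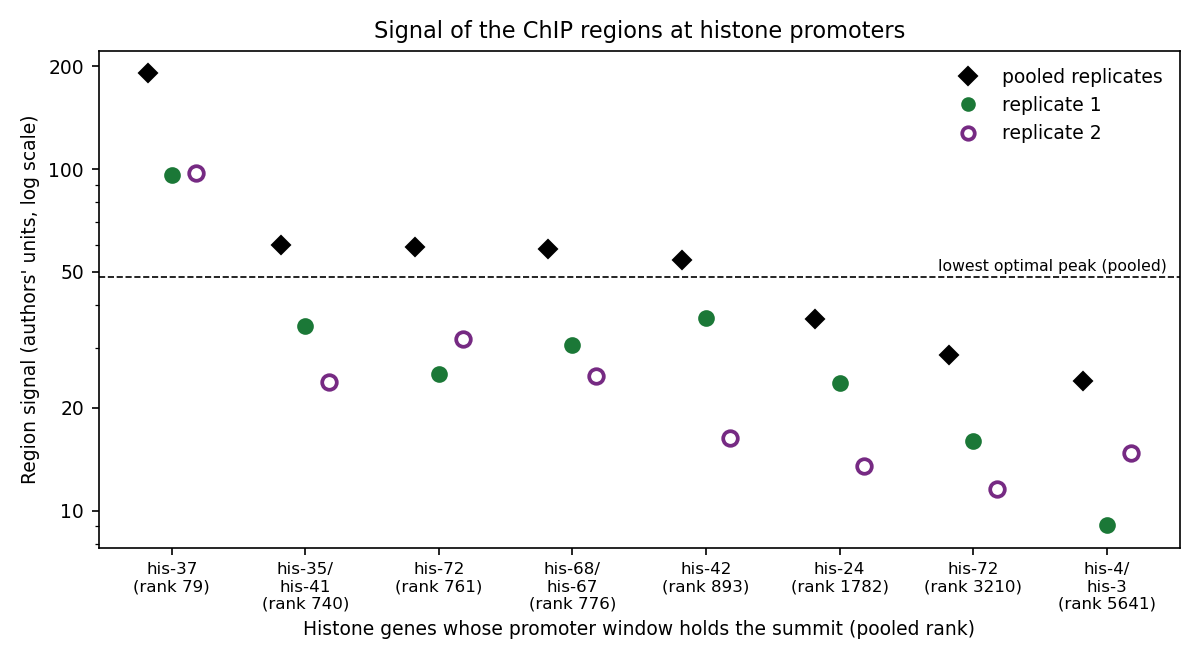
Signal, in the authors' units on a log scale, of the 8 best-ranked pooled regions with a summit in a histone promoter window, in the pooled list (diamonds), replicate 1 (filled circles) and replicate 2 (open circles), with a dashed line at the lowest optimal signal, 48.3. The region at his-37 stands apart at 191 with nearly equal replicates, and the replicates differ most at his-42, with 36.8 in replicate 1 and 16.3 in replicate 2.

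The replicates taken alone did not hold the same histone promoters. Among the 1076 strongest regions of replicate 1, summits lay in the windows of 6 of the 72 histone genes, against 2.99% of all genes. Among the 1076 strongest of replicate 2 they lay in the windows of 2, his-37 and his-72, against 3.08% of all genes. Only his-37 was counted in both. In replicate 2 the regions at his-35 and his-41 and at his-67 and his-68 ranked 1361 and 1237, just past that limit, while the region at his-42 ranked 4861. With 2 of 72 histone genes, replicate 2 alone gave a share close to that of all genes.

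The count of histone genes also moved with the signal asked for. With the stronger part of the optimal list, the top 538 peaks, 1 histone gene (his-37) was counted, against 1.55% of all genes. Down to rank 2000 of the pooled list 8 were counted, against 5.45% of all genes, and down to rank 5000 still 8, against 11.2%. With each optimal peak given to its nearest protein-coding start only, 6 were counted, against 2.55%. The 4 histone peaks other than that of his-37 had signals between 54.1 and 59.9, in the weaker part of the optimal list.

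When every pooled region was counted, whatever its rank, 10 of the 72 histone genes (13.9%) had a summit in their window, against 39.9% of all protein-coding genes. The histone share thus lay above that of all genes for optimal peaks and below it for all regions. In replicate 1 alone 12 histone genes had a region, against 40.6% of all genes, and in replicate 2 alone 13 had one, against 40.4%. Those found in a single replicate's list were his-61 and his-62 in replicate 1 (rank 11631, signal 9.97) and his-5, his-32 and his-71 in replicate 2, all far below the optimal range. No list had a region in the windows of 57 histone genes, of which 51 were clustered.

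Clustered histone windows held much repeated sequence. For each window, which can reach into the coding sequence of a divergent partner, the share of 36-base words that occur once in the genome was computed from the reference sequence, since reads from repeated sequence cannot be placed at 1 locus. The median share was 14.6% in clustered histone genes, 85.8% in single and paired ones and 100% in H3.3 genes. Over all protein-coding genes the median was 100% with a lower quartile of 97.9%. In 20 clustered genes no word of the window was single-copy. The run of his-35, his-37 and his-41, which held 2 of the 5 optimal peaks, stood apart from the other clusters with a median of 98.5%. Leaving this run out, the 58 genes in the 10 clusters of at least 4 genes had a median of 10.6% and included 1 gene with an optimal peak, his-42, whose peak lay beside the small nuclear RNA gene. These 10 clusters, with 1 kb on each side, covered 75.3 kb and held 6 pooled summits, which is 7.97 per 100 kb, against 29.9 per 100 kb over the 6 nuclear chromosomes.

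**Figure D3:**
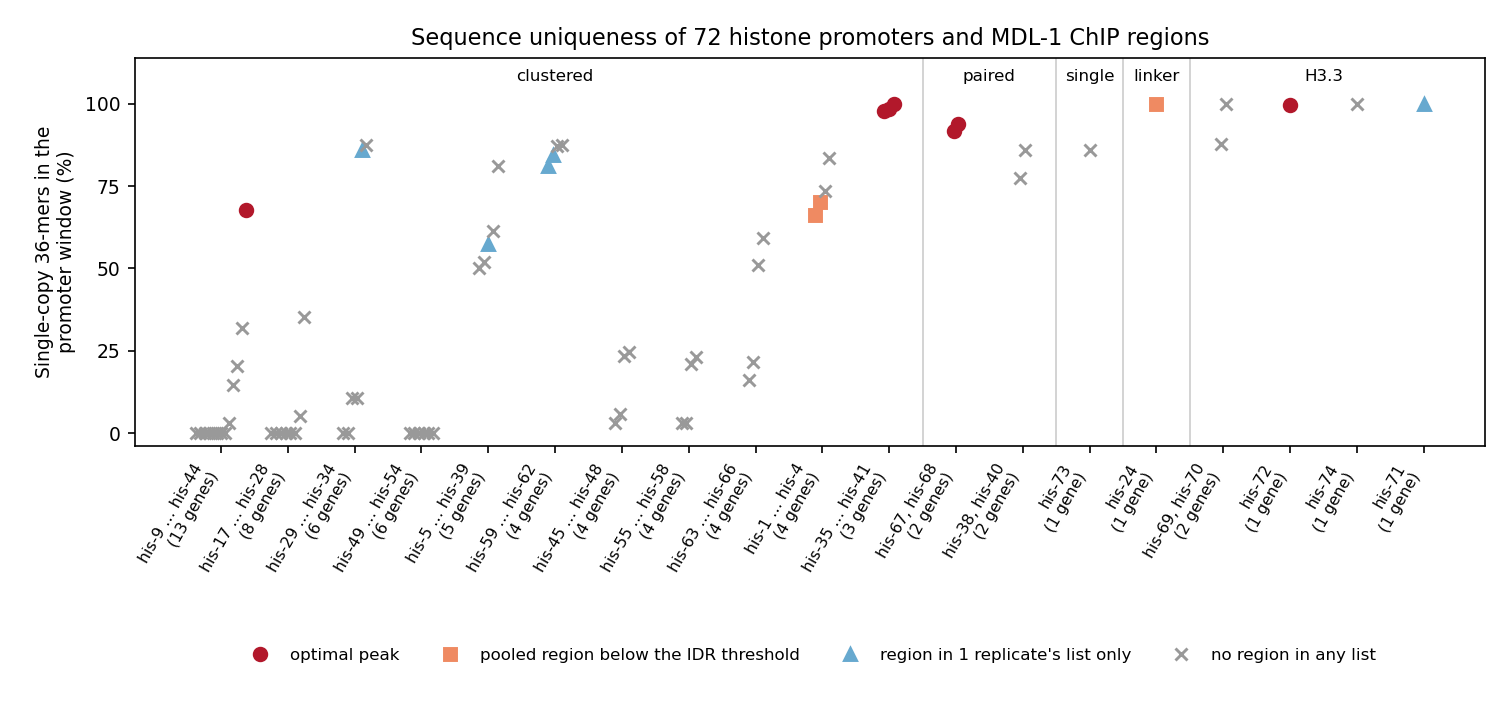
Share of single-copy 36-base words in the promoter window of each of the 72 histone genes, in percent, with genes grouped by run of neighbouring histone genes and marked by the best list that holds a summit in the window. All but 1 of the genes with an optimal peak have a share above 90%, and the exception, his-42, has 67.7%.

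Regions were also scarcer over all protein-coding genes where the sequence was repeated. Of the 319 protein-coding genes with at most 25% single-copy words, none had a summit of any pooled region, and 38 of these were histone genes. Between 25 and 50% the share with any pooled region was 0% of 2 histone genes and 5.81% of all 258 genes. Between 50 and 75% it was 3 of 10 histone genes (his-3, his-4 and his-42) and 16.9% of all 747 genes. Between 75 and 90% it was 0 of 12 histone genes and 28.3% of all 1329 genes. Above 90% it was 7 of 10 histone genes and 43% of all 17320 genes. For the 38 histone genes in the lowest range, where no gene of any kind had a region, an empty window cannot be read as absence of binding. How the authors treated reads that map to several places is not given in the sources used here, and the part this played in the missing regions was not tested.

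Among the 10 histone genes above 90%, 6 had an optimal peak, against 3.38% of all genes in that range. The ranges were chosen after the regions were seen, so this contrast is a description and no test. These 6 genes were his-35, his-37, his-41, his-67, his-68 and his-72, and they shared 4 peaks. The other 4 were his-24, with its pooled region below the threshold, and the H3.3 genes his-69, his-71 and his-74. In the 12 histone genes between 75 and 90% most of each window was single-copy, and none had a pooled region. They were the clustered genes his-2, his-31, his-32, his-39, his-59, his-60, his-61 and his-62, the paired genes his-38 and his-40, the single gene his-73 and the H3.3 gene his-70. Whether the repeated part of these windows lay where a summit would was not tested.

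**Figure D4:**
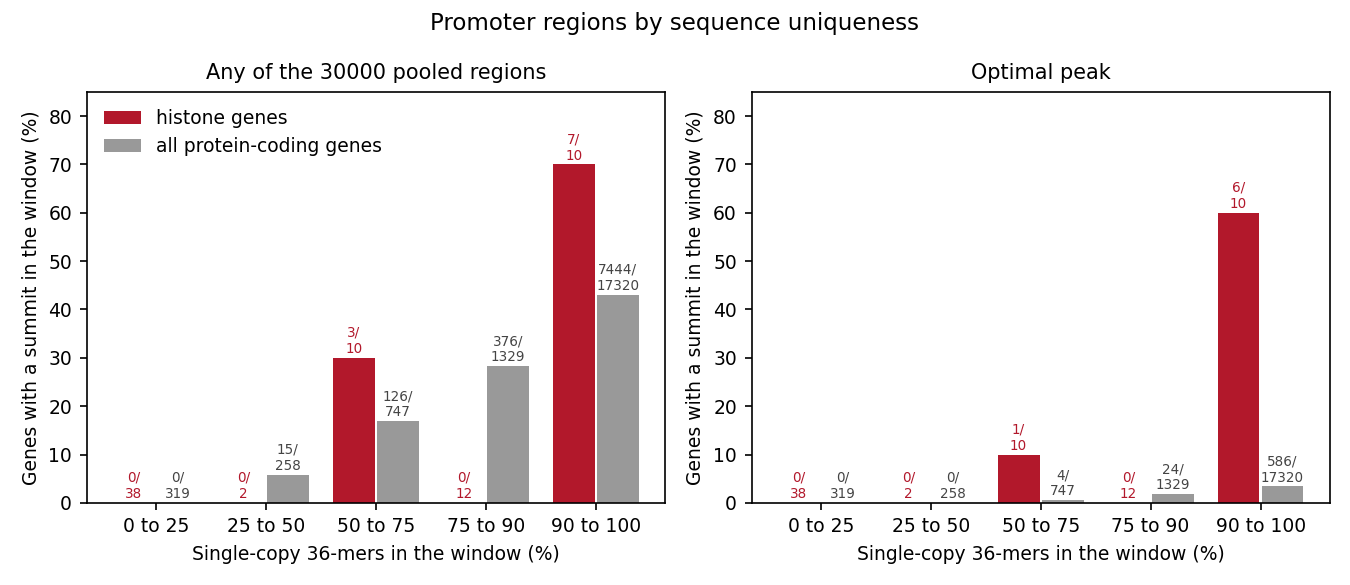
Percent of genes with a summit in the promoter window, by the share of single-copy 36-base words in the window, for histone genes (left bar of each pair) and all protein-coding genes (right bar), with the counts above each bar, for any pooled region on the left and for optimal peaks on the right. Neither group has a pooled region in the lowest range (0 of 38 and 0 of 319), and above 90% the share with an optimal peak is 6 of 10 histone genes and 586 of 17320 of all genes. The ranges were chosen after the regions were seen.

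Few clustered histone promoters held the E-box of the MDL-1 family. CACGTG, which reads the same on both strands, was present in the windows of 5 of the 72 histone genes (6.94%), against 21.5% of the 19901 other protein-coding genes. The 5 were his-1, his-31, his-32, his-71 and his-72, and only the last had a summit within 50 bp of it. By class they were 3 of the 61 clustered genes and 2 of the 5 H3.3 genes. Many clustered windows overlap or repeat one another, so the 72 genes are not independent promoters and these shares are a description only.

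What the strongest histone region shared with weaker ones was another word. The longest stretch common to the 101 bases at his-37, his-24 and his-3 is the 14 letters marked in capitals above, which read CTGCGGGGACACAT on one strand and were sought on both. It was found after the regions were seen and from their sequence, so its presence at these 3 regions is no result. At his-37 and his-24 the match ran on to 20 letters. The word lay in the windows of 22 histone genes (30.6%), of which 19 were clustered, 2 paired and 1 the linker gene. These include his-3, his-4, his-24 and his-37, whose regions gave the word, and the 22 genes share 12 sites. The word lay in the windows of 8 of the 19901 other genes (0.0402%). Because it was taken from histone promoters, these shares describe where it lies and are no test of enrichment. In all 22 histone genes the word lay upstream, between 54.5 and 234.5 bp from the start with a median of 122 bp, and the core histone genes with it encode H2A (5 genes), H2B (4), H3 (5) and H4 (7). Its last 10 letters, GGGGACACAT, were more widespread, in the windows of 34 histone genes (47.2%) and 31 other genes (0.156%). Neither form lay in the window of an H3.3 gene or in the printed sequence between his-35 and his-41.

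The word occurred at 30 places in the genome, of which 12 lay in histone windows and 18 elsewhere. Pooled regions covered 4 of the 12 histone sites, but 3 of these gave the word and were covered by construction. Beyond them 1 histone site was covered, by the optimal peak of his-67 and his-68, where the centre of the word lay 8.5 bp from the summit. That peak, too, had been seen before the word was taken, so its match is no independent support. None of the 18 other sites lay under a pooled region. The surroundings of the 12 histone sites differed in copy number. In 6 of them over 50% of the 36-base words within 101 bp were single-copy, and these 6 included all 4 covered sites. The remaining 2 of those 6, in the pairs his-59 and his-60 and his-5 and his-6, were single-copy at 100% and 72.7% and had no pooled region over them. The other 6 histone sites had no single-copy word around them and no region. Of the 18 sites outside histone windows, 14 had mostly single-copy surroundings. Of these 18 sites, 1 was covered by a region of replicate 2 and none by a region of replicate 1. Of the 22 histone genes that hold the word, 15 had no region in any list, most of them at the 6 sites with no single-copy word around them, where an empty window cannot be read as absence of binding. A match to these letters is a description of the sequence and names no binding factor.

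**Figure D5:**
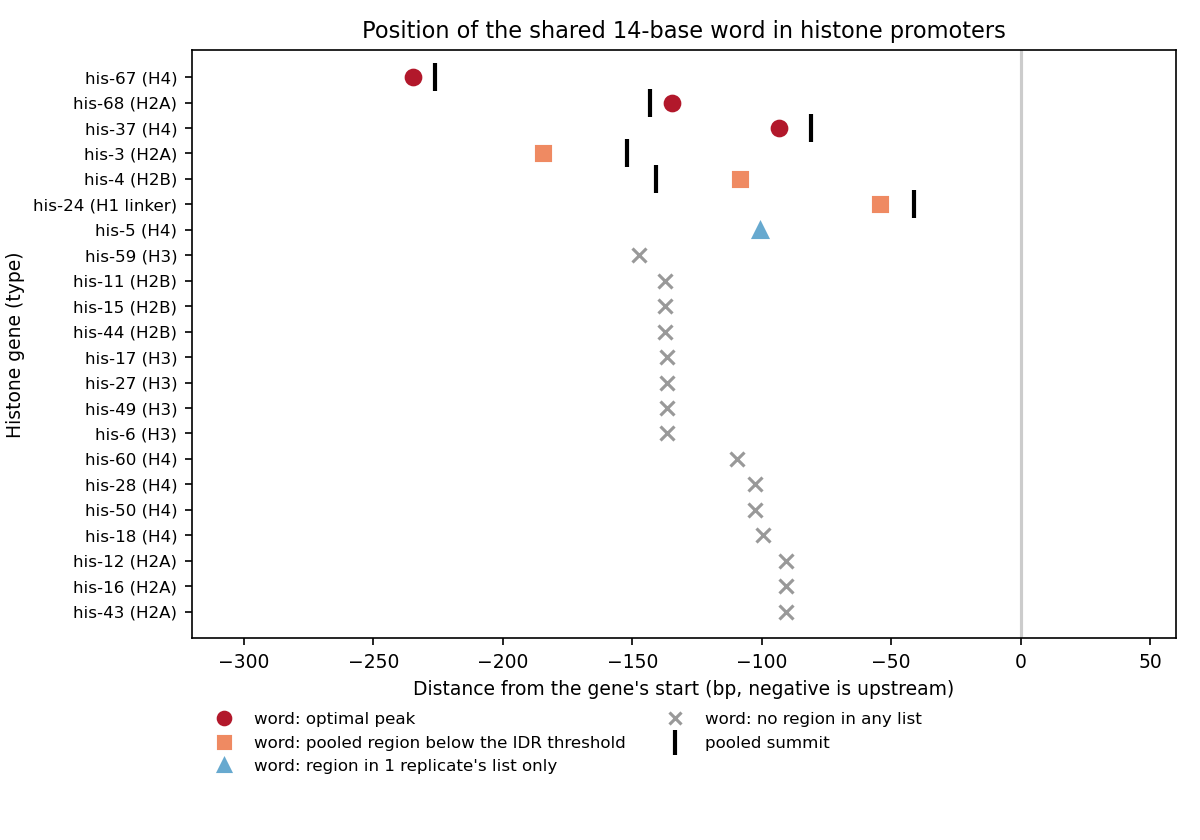
Distance, in bp from the gene's start, of the shared 14-letter word in the 22 histone genes whose window holds it, marked by the best list with a summit in that gene's window, with a vertical tick at the pooled summit where there is one. The word lies 54.5 to 234.5 bp upstream in every gene, and the pooled summits lie 12.5 bp from its centre at his-37, 13.5 bp at his-24, 8.5 bp at his-67 and his-68 and 32.5 bp at his-3 and his-4.

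Genes that act with the his- genes were examined through 2 lists. The first held the 12 histone variant and linker histone genes without a his- name, whose windows were at least 85.2% single-copy. Of these 1 had an optimal peak, htz-1, which encodes the variant H2A.Z, and 8 of 12 (66.7%) had a pooled region, against 39.9% of all protein-coding genes and 43% of those above 90% single-copy. The htz-1 peak ranked 763 with a signal of 58.9, had 34.4 in replicate 1 and 25.03 in replicate 2, and lay 328 bp upstream of the start. Some linker histone genes came next, below the threshold, with hil-2 at rank 1253 and a signal of 43.7, hil-3 at rank 1322 and 42.2, and hil-1 at rank 1514 and 39.4. The replicates differed here. While hil-2 ranked 1327 in replicate 1 and 1894 in replicate 2, hil-3 ranked 5331 and 1137. At hil-1 replicate 1 had no region, and that of replicate 2 ranked 1875. The linker genes hil-7 and hil-8 had regions of rank 4420 and 9885, and hil-4, hil-5 and hil-6 had no region in any list. The centromeric H3 genes hcp-3 and cpar-1 had only regions of rank 24711 and 12720.

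The second list held 16 genes for histone chaperones, a histone acetyltransferase and the processing of histone mRNA, and 2 of them had an optimal peak. A pooled region lay at 8 (50%), a share close to the 39.9% of all protein-coding genes. The peak at hat-1, whose product in yeast acetylates new H4, ranked 647 with a signal of 65.4, and had 36.2 in replicate 1 and 28.8 in replicate 2. The peak at lin-53, which encodes a histone-binding protein of the RbAp48 family, ranked 806 with a signal of 57.3, and had 40.003 in replicate 1 and 20.5 in replicate 2. Next came spt-16, a subunit of the FACT chaperone, at rank 1356 and chaf-2, a subunit of chromatin assembly factor 1, at rank 1859. In replicates 1 and 2 spt-16 ranked 3678 and 2753, and chaf-2 ranked 6309 and 3488. The gene cdl-1, whose product binds the stem-loop of core histone mRNA, had only a region of rank 11868. The best-ranked pooled region of each gene in these lists was searched for CACGTG within 50 bp of its summit, and none held it. Of all 30000 pooled regions 979 held it there, so its absence at so few regions does not set these genes apart. At 1 of 12 and 2 of 16 genes, the counts of optimal peaks rest on single genes beside the 3.07% of all genes.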

How the data were processed

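Per the text files that the authors deposited, regions were made from each replicate's alignments and 1 further file, and optimal peaks were those kept from the pooled regions by an IDR threshold. The aligner, peak caller, IDR threshold and treatment of multi-mapping reads were not given in the sources used here. The authors' signal value per region, of unstated scale, was used to rank and describe regions. The deposited −log10 q-value was read but ranks nothing here. The ce10 lists were not used.

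Summits were placed in promoter windows of the Ensembl release 115 annotation. Because several genes share an Ensembl symbol, the 72 genes have only 50 distinct symbols, so 22 genes were renamed from RefSeq by gene identifier, and all products came from there too. Words and sequences were read from the RefSeq genome of WBcel235, with words sought on both strands. Shares have exact (Clopper-Pearson) 95% intervals from scipy 1.17.1, and tables were handled with pandas 2.3.3 and numpy 2.4.6. For each replicate alone, its 1076 strongest regions stood in for the optimal list. With 1 group there was no comparison of conditions and no p-value. Placement of summits and counting of single-copy words were tested on simulated data. Genes were named by a rule on ranks and classes. The members, the lists of related genes and the rules were chosen with earlier results of these data known, and the shared word and the choice of the uniqueness ranges came after the regions were seen.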

Additional observations from a re-analysis of the deposited data

How the results depend on the processing

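Of 63 alternative values, 48 stayed within 1.5 times the main count or within the spread used for it. The stronger 538 optimal peaks left 1 histone gene, 1 peak and 1 clustered gene, and 0 single or paired and 0 H3.3 genes. Leaving out a replicate gave 2 to 6 histone genes, 2 to 4 peaks, 1 to 4 clustered genes, 0 to 2 single or paired genes, 0 to 1 H3.3 genes and 12 to 13 histone genes with any region, the lower values of the first 4 coming without replicate 1 and that of H3.3 without replicate 2. Giving each peak to the nearest start only left 1 single or paired gene. Requiring 4 or more genes in a cluster, chosen after seeing the data, left 1 clustered gene with an optimal peak. CACGTG lying wholly within 25 bp of the summit was found at 0 histone peaks, since that of his-72, centred 23.5 bp away, runs past this limit. With longer words the median single-copy share of single and paired genes was 93.5% at 50 bases and 100% at 100 bases. The cause of these changes was not tested, except that stricter lists and single replicates hold fewer or other regions by construction. The class counts are too small to compare classes. Signals have no stated scale, read depth is unknown, and repeated promoters cannot be judged from these lists. No paired analysis was possible because there is 1 group of samples and no test.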
